A study of Mus musculus with 4 samples.

Results

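The cytosolic ribosomal protein genes encode the proteins of the ribosomes that translate nuclear mRNAs. They were taken by symbol from the count table, as Rpl or Rps followed by a number, with the P stalk genes Rplp0, Rplp1 and Rplp2 and the gene Rpsa added, and a gene needed at least 20 counts summed over the 4 libraries. This gave 76 of the 35798 named genes, 46 of the large subunit and 30 of the small subunit, and all 76 passed the filter on low counts that left 13822 genes to test. The lowest of them held 2566 counts in all, so the minimum of 20 removed none. The symbol rule leaves out genes of ribosomal proteins with other names, of which Rps3a1, Rack1 and Fau are described beside the members.

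RNA was sequenced from Ly49H+ natural killer (NK) cells of the spleen, sorted at D3.5 after infection with murine cytomegalovirus (MCMV). Wild-type cells carried CD45.1 and cells of mice lacking the receptor TNFR2 (TNFR2 KO) carried CD45.2, and both had been transferred together into NSG mice, immunodeficient hosts without NK, T or B cells of their own but with myeloid cells. There were 2 libraries of each genotype, each from the pooled spleens of 3 hosts, and libraries that share a number share a pool. Whether the pools of both numbers held different hosts is not stated, and the paper speaks of a pooled spleen sample from 3 infected mice. The CD45 allele and the sort gate differed along with the genotype, so their effects cannot be told apart, and the experiment was a single one in duplicate.

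A ribosome joins a small subunit, which reads the mRNA, to a large subunit, which forms the peptide bond. Most of its proteins are present once in each ribosome, and their mRNAs are among the most abundant of a growing cell. Many of these mRNAs start with a run of pyrimidines (the 5′ terminal oligopyrimidine or TOP motif), through which mTORC1 signalling controls their translation, and activated lymphocytes make more ribosomes before they divide. In mammals each of these proteins usually comes from a single gene with introns, and the genome holds many processed pseudogenes, intron-less copies of the mRNAs.

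Those copies bear directly on the counts, because the authors assigned reads to transcripts by short stretches of sequence. Cut into stretches of 31 bases, the transcripts of the members shared up to 94.1% (Rpl36) of their stretches with other genes of the GENCODE annotation, with a median of 25.1%. For 67 of the 76 members there was at least 1 near-identical gene, defined as a gene with at least 50% of its own stretches inside the member, and 293 such genes were counted in the table. The sequences that separate a member from such a copy are shown for Rpl34, the member with the largest difference between the genotypes, and for Rpl3, the member with the smallest adjusted p among the higher ones. The coding sequence of Rpl34 (chromosome 3 of GRCm38, 130726831 to 130730398, minus strand) is 351 bases long and differs from the processed pseudogene Rpl34-ps1 (chromosome 6, 71124610 to 71124963, plus strand) at 2 bases. These are T132C and C318G, with the base of the member first, the position counted from the first base of the start codon, and the base of the pseudogene last. The windows of 41 bases below lie in the coding exons of Rpl34 (chr3:130729064-130729104 and chr3:130726891-130726931, minus strand) and in the pseudogene (chr6:71124721-71124761 and chr6:71124907-71124947, plus strand), and the capital marks the base that differs.
Rpl34, base 132: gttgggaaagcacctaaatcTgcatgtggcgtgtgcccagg
Rpl34-ps1, base 132: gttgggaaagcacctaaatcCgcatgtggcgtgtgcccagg
Rpl34, base 318: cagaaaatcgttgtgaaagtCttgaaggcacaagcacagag
Rpl34-ps1, base 318: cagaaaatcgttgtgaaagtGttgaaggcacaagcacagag

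Rpl3 (chromosome 15, 80077791 to 80091868, minus strand) has a coding sequence of 1209 bases and differs from Rpl3-ps1 (chromosome X, 13202571 to 13203780, plus strand) at 2 of them, C57A and T786C. The windows lie in coding exons of Rpl3 (chr15:80082509-80082549 and chr15:80079733-80079773, minus strand) and in the pseudogene (chrX:13202608-13202648 and chrX:13203337-13203377, plus strand).
Rpl3, base 57: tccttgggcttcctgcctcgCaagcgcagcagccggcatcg
Rpl3-ps1, base 57: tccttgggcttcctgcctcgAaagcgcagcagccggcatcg
Rpl3, base 786: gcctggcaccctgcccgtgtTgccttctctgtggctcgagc
Rpl3-ps1, base 786: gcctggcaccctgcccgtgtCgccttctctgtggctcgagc
Other close pairs differed as little. Rpl21 and Gm10163 differed at 2 of 480 coding bases, Rpl30 and Gm12191 at 1 of 345, Rps7 and Rps7-ps3 at 3 of 582, and Rps18 and Rps18-ps6 at 4 of 456. For Rpl5 and Gm15500 (891 bases), Rpl12 and Gm10275 (495 bases) and Rps12 and Rps12-ps3 (396 bases) no coding base differed. These 9 pairs were chosen after the values had been seen, and all sequences are those of the reference genome, not of the mice.

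The libraries held between 32713256 and 39543650 counts, and values are given as CPM after TMM scaling. Replicate libraries differed by more than counting noise in the members, with a mean chi-square per member of 11.7 for the wild-type pair and 13.9 for the TNFR2 KO pair, where counting noise alone gives about 1. Tnfrsf1b, which encodes TNFR2, had 265 and 269 CPM in wild-type and 55.1 and 58.6 CPM where it is deleted, and its log2-fold change was -2.23. NK cell markers were present in every library: Klra8, which encodes Ly49H, measured 313 and 316 CPM in wild-type and 762 and 726 CPM in TNFR2 KO, and Ncr1 258 and 256 CPM against 511 and 511 CPM. Markers of other cell types were present too and differed between the genotypes. The summed level of 20 macrophage or monocyte markers was 2665 and 2635 CPM in wild-type and 1280 and 1260 CPM in TNFR2 KO, with 18 of the 20 lower (adjusted p under 0.05), 2 higher and a median log2-fold change of -2.88. All 13 neutrophil or granulocyte precursor markers and 8 of 9 mast cell or basophil markers were lower as well, with medians of -2.29 and -5.41. None of these lists held a marker at 0 in all 4 libraries, and the most abundant of the macrophage list in wild-type was Lyz2, at 771 and 778 CPM against 114 and 110.4 CPM. Ccr2, of the same list, was higher instead, at 404 and 384 CPM against 687 and 670 CPM, and was its most abundant gene in TNFR2 KO. In bulk RNA, fewer cells of a type and less RNA per cell cannot be told apart.

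Under TMM scaling, most members were slightly higher in the TNFR2 KO libraries. With edgeR's quasi-likelihood test, 48 of the 76 members (63.2%) were higher and 4 (5.26%) were lower at an adjusted p under 0.05, while 24 were not called. Over all genes tested 24.2% were higher and 26.2% lower by the same rule. The median log2-fold change of the members was 0.11, a 1.08-fold difference, with quartiles of 0.05 and 0.20, and that of all genes was -0.003, with quartiles of -0.29 and 0.18. All 48 higher members were less than 1.5-fold higher. With a log2-fold change over 1 required as well, 0 members were higher and 1 was lower, against 1.56% and 11.8% of all genes. DESeq2 also gave 0 higher members past both thresholds, and 44 members higher with an adjusted p under 0.05.

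Abundant genes as a whole leaned the same way. Of the 2338 genes that averaged at least 100 CPM, 73 of them members, 47.9% were higher and 22.0% lower in edgeR's test, and their median log2-fold change was 0.07, with quartiles of -0.06 and 0.20. The share of members called higher lay nearer to that of abundant genes than to that of all genes.

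**Figure D1:**
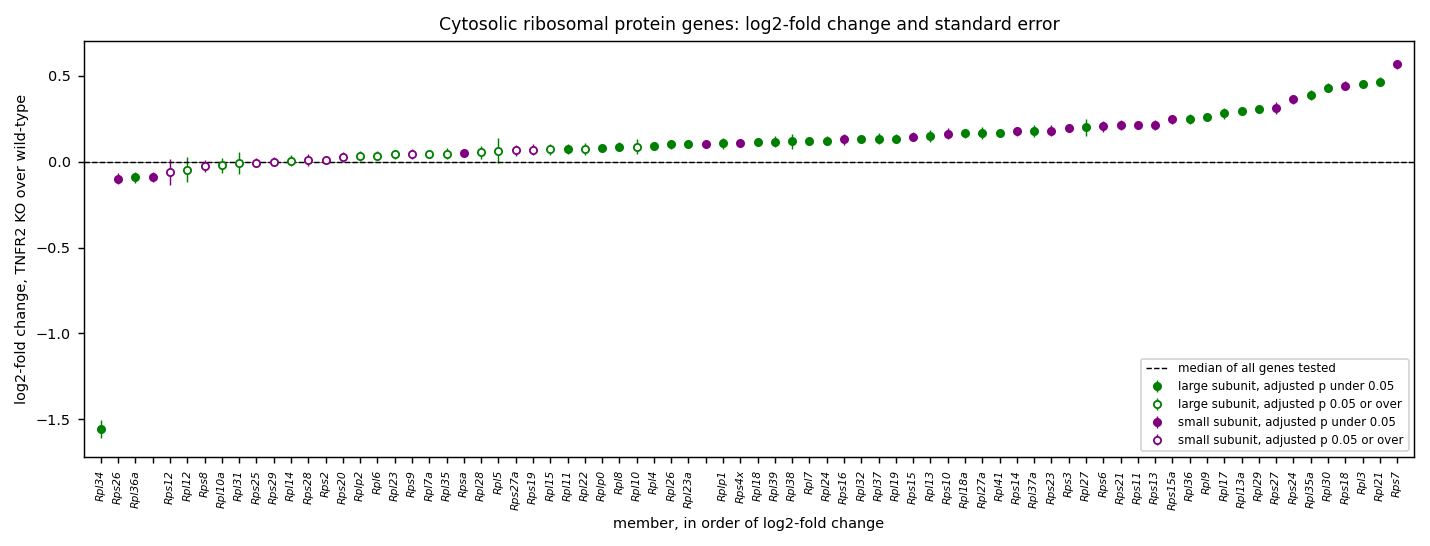
Log2-fold change between the genotypes (positive where TNFR2 KO was higher) (vertical axis) for each of the 76 members, in rising order (horizontal axis, not every member labelled), with the standard error of edgeR's fit as bars, green for the large and purple for the small subunit, filled where the adjusted p was under 0.05. Rpl34 stands alone at -1.56, and the other 75 members lie between -0.10 and 0.57, with the median of all genes (dashed) at -0.003.

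Counted by library, both TNFR2 KO libraries lay above both wild-type libraries for 54 members (71.1%) and below both for 4, and the genotypes overlapped for 18. Over all genes these shares were 36.4% above and 37.7% below. Between the libraries numbered 1, 70 members were higher in TNFR2 KO, with a median log2-fold change of 0.14. Between those numbered 2, 59 were higher, with a median of 0.09. In both pairs alike 58 members were higher and 5 lower. The shares of all genes by pair are not given here, so the counts by pair do not show whether the members stand out. A two-sided exact permutation test on 2 libraries a group goes no lower than p = 0.333, so calls rest on the fit across all genes.

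All members together took 3.84% and 3.92% of all counts in wild-type and 4.12% and 4.07% in TNFR2 KO. Both TNFR2 KO values lay above both wild-type values. The means were 3.88% ± 0.0546 (SD, n = 2) and 4.09% ± 0.0356 (SD, n = 2), a difference of 0.209 percentage points. With the near-identical genes added the shares were 4.76% and 4.84% against 4.99% and 4.90%, a difference of 0.143 percentage points.

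The direction rests on the scaling between libraries. TMM, DESeq2's size factors and upper-quartile scaling gave 48, 48 and 49 higher members, and library size alone gave 31 higher members with a median of 0.05. When the libraries were scaled on 43 genes of the NK lineage, the median of all genes moved by -0.69 and that of the members to -0.58, and all 76 members, with 84.7% of all genes, were then lower. A scaling factor moves all genes together, so the place of the members relative to the median of all genes, with 66 of the 76 above it, is the same by construction. The NK lineage list itself had 38 of 43 genes higher under TMM, with a summed level of 18311 and 18237 CPM in wild-type and 28565 and 28477 CPM in TNFR2 KO. The part of these lists of NK and other cells in the members' difference was not tested.

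**Figure D2:**
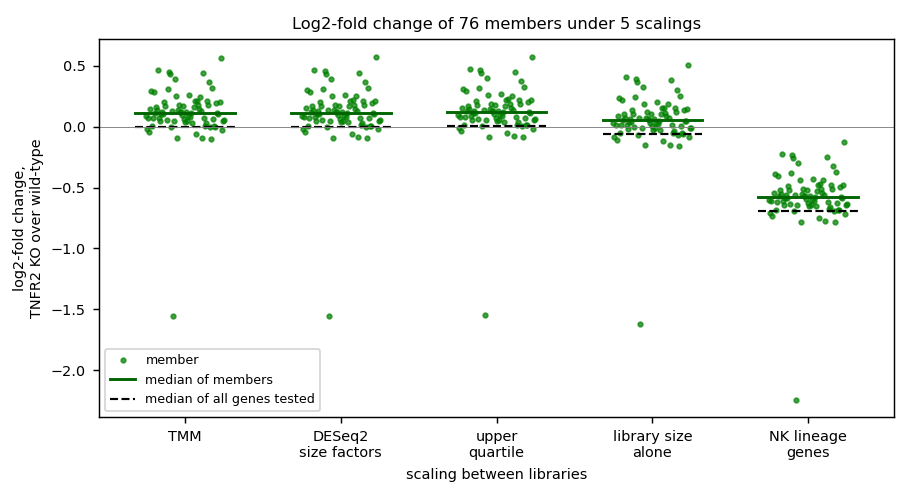
Log2-fold change between the genotypes (positive where TNFR2 KO was higher) (vertical axis) of the 76 members, each a point, under 5 scalings between libraries (horizontal axis), with the median of the members as a solid line and the median of all genes tested as a dashed line. The members' median lies above that of all genes in every column, and under scaling on NK lineage genes both lines lie below 0, at -0.58 and -0.69.

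Rpl34, a protein of the large subunit, was the member that differed most. It measured 223 and 236 CPM in wild-type and 82.98 and 72.2 CPM in TNFR2 KO. The wild-type level was 2.95-fold that of TNFR2 KO, far beyond the difference between duplicates, at a log2-fold change of -1.56 (standard error 0.0520, edgeR adjusted p = 1.21e-10). Its near-identical gene Rpl34-ps1 went the other way, with 59.4 and 54.8 CPM in wild-type but 236.5 and 226 CPM in TNFR2 KO, and its log2-fold change was 2.02. With the counts of near-identical genes added to those of Rpl34, the 4 libraries held 282 and 290.4 CPM in wild-type and 319.7 and 298 CPM in TNFR2 KO. The log2-fold change was then 0.11 (standard error 0.0332, edgeR adjusted p = 0.0144), close to the median of the members. Of the summed counts, the symbol Rpl34 held 80.0% in wild-type and 25.1% in TNFR2 KO.

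Among the higher members, edgeR's test gave its 5 smallest adjusted p-values to Rpl3, Rps7, Rpl21, Rpl30 and Rps18. Rpl3, a protein near the peptidyl transferase centre, measured 814 and 816 CPM in wild-type and 1121 and 1111 CPM in TNFR2 KO (log2-fold change 0.45, standard error 0.0216, adjusted p = 3.69e-09). Rps7, a small subunit protein needed to process the precursor of 18S rRNA, measured 392 and 412 CPM against 590.2 and 600.4 CPM, the log2-fold change being 0.57 ± 0.0279 (standard error, adjusted p = 5.04e-09). In both genes the genotypes were separated by far more than the duplicates. Rpl21, of the large subunit, went from 370.4 and 380.4 CPM to 519 and 519 CPM, a log2-fold change of 0.47 (adjusted p = 1.12e-08). Rpl30, also of the large subunit, went from 233 and 236 CPM to 315 and 318 CPM, a log2-fold change of 0.43 (adjusted p = 3.31e-08). Rps18, in the head of the small subunit, went from 459 and 472 CPM to 643 and 621 CPM, a log2-fold change of 0.44 (adjusted p = 3.42e-08). None of the 5 genes had overlapping genotypes.

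Each of these 5 genes also had a near-identical gene that fell. Rpl3-ps1 had 281 and 286 CPM in wild-type and 38.1 and 36.9 CPM in TNFR2 KO. Rps7-ps3 had 172 and 161 CPM against 71.3 and 57.8 CPM, and Rps18-ps6 had 72.9 and 77.4 CPM against 8.84 and 8.55 CPM. Gm10163, the near-identical gene of Rpl21 with the highest level, measured 162 and 113 CPM in wild-type, a pair that differed more than most duplicates, and 81.4 and 71.1 CPM in TNFR2 KO. The copies of Rpl30 were divided unevenly between duplicates, since Gm12191 held 11.2 and 0.499 CPM in TNFR2 KO and Rpl30-ps9 held 0 and 8.71 CPM. All near-identical genes of Rpl30 together gave steadier sums, of 55.8 and 58.3 CPM in wild-type and 14.2 and 11.1 CPM in TNFR2 KO.

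**Figure D3:**
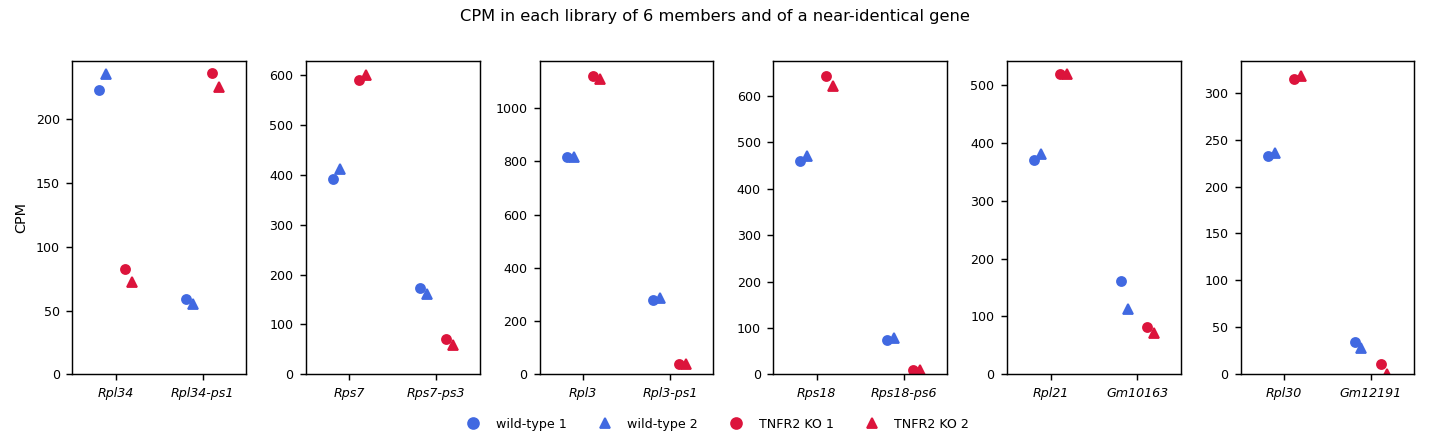
CPM in each library (vertical axes, each from 0) of 6 members and of 1 near-identical gene each, with wild-type in blue and TNFR2 KO in red, circles for replicate 1 and triangles for replicate 2. In each panel the member and its copy differ between the genotypes in opposite directions, as for Rpl34 (223 and 236 against 82.98 and 72.2 CPM) and Rpl34-ps1 (59.4 and 54.8 against 236.5 and 226 CPM).

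Adding the near-identical genes narrowed the spread of the members, mostly at its ends, without moving their centre. This addition was chosen after the data had been seen. The standard deviation of the 76 log2-fold changes went from 0.24 to 0.09 and their range from -1.56 to 0.57 to -0.10 to 0.31, while the median was 0.11 before and after. Rpl34 weighed most in the first standard deviation. The quartiles changed less, from 0.047 and 0.197 to 0.044 and 0.164, and the median size of a member's move was 0.003. Of the 8 members with the largest differences, all 8 had near-identical genes whose summed level differed in the opposite direction, and with these added their log2-fold changes lay between 0.07 and 0.28. Rpl3 came to 0.07, Rpl21 to 0.13, Rps18 to 0.16, Rpl30 to 0.17 and Rps7 to 0.22. Of the members, 10 moved by over 0.1 and 54 by less than 0.05. In this fit 53 members were higher and 4 lower in edgeR's test (adjusted p under 0.05), against 24.6% and 26.5% of its genes, and 47 of the 48 higher members remained higher. The member no longer called was Rpsa, with a log2-fold change of 0.05 in both fits. Past both thresholds 0 members were left in either direction, in place of 1.

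**Figure D4:**
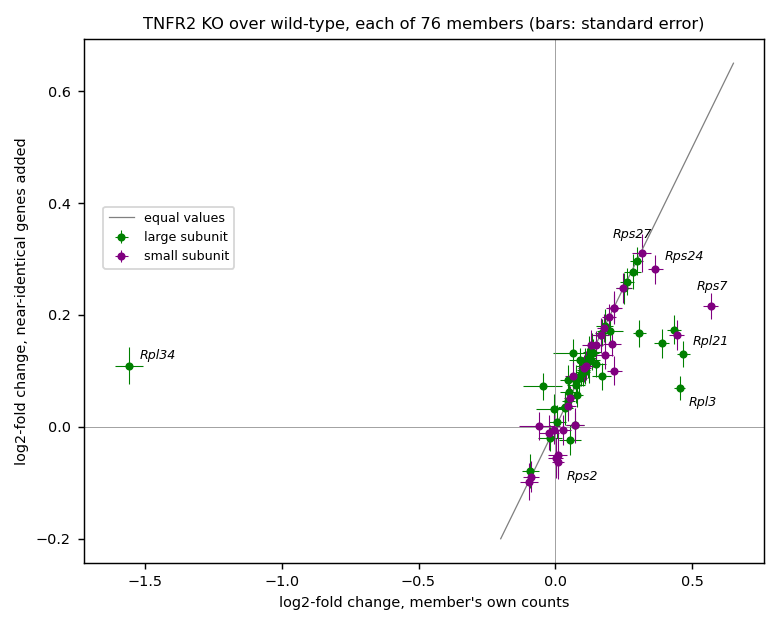
Log2-fold change between the genotypes (positive where TNFR2 KO was higher) of each member from its own counts (horizontal axis) and with the counts of near-identical genes added (vertical axis), with standard errors as bars, green for the large and purple for the small subunit, and a grey line of equal values. Most members lie on the line, Rpl34 moves from -1.56 to 0.11, and Rpl3, Rpl21 and Rps7 move from between 0.45 and 0.57 to between 0.07 and 0.22.

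Members with few counts assigned to their near-identical genes showed a similar small difference. For 39 members the symbol itself held over 99% of the summed counts. This group was set by how reads were assigned, not by sequence, and Rplp1 in it shared 75.1% of its stretches with other genes. Their log2-fold changes ran from -0.10 to 0.31 with a median of 0.12, and 31 were higher and 2 lower in edgeR's test. For the 9 members without any near-identical gene the range was 0.03 to 0.21 with a median of 0.13, and 7 were higher and 0 lower. Over all genes tested 24.2% were higher and 26.2% lower, and over genes that averaged at least 100 CPM 47.9% and 22.0%. The members without a near-identical gene too can share stretches, as Rps15 did for 49.7% of its own. The part of shared reads in the difference was not tested. With the counts of near-identical genes added, edgeR's smallest adjusted p belonged to Rpl13a (log2-fold change 0.30, adjusted p = 2.61e-07), which has a role in silencing inflammatory mRNAs outside the ribosome. Rps24, a small subunit protein, followed at 0.28, and Rps27, also of the small subunit, was the highest of all at 0.31.

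The near-identical genes themselves were called in both directions. Of the 293 near-identical genes, 39 had a mean of at least 10 CPM. Of these 12 were lower and 11 higher (adjusted p under 0.05 in edgeR's test), beside 26.2% and 24.2% of all genes tested. Copies with equal values in every library were counted separately, as were Gm13841 and Gm8210 (lower) and Gm11518 and Rpl27-ps3 (higher). Past both thresholds 11 were lower and 1 higher, beside 11.8% and 1.56% of all genes. The floor of 10 CPM was a mean over all 4 libraries, and most of the 11 lay under it in both TNFR2 KO libraries. Those genes passed on their wild-type level, and all genes passed a different filter. The shares are therefore not like for like, and no excess of lower genes can be read from them. The 11 had log2-fold changes between -3.50 and -1.36 with a median of -2.94, and the other lower one, Gm10163, was at -0.85. The lists of markers of other cell types had medians from -5.41 (mast cell or basophil) to 0.33 (B cell). That of the macrophage or monocyte markers was -2.88, that of the neutrophil or granulocyte precursor markers -2.29 and that of the erythroid markers -1.63. Whether the reads of the 11 genes came from other cells than NK cells was not tested.

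Rps26 and Rpl36a were among the members that edgeR's test called lower besides Rpl34. Rps26, which lines the channel where the mRNA leaves, measured 471 and 497 CPM in wild-type and 466 and 438 CPM in TNFR2 KO (log2-fold change -0.10, adjusted p = 0.0298). Rpl36a, of the large subunit, measured 116 and 117 CPM against 109 and 109.9 CPM (log2-fold change -0.09, adjusted p = 0.0320). The differences were small beside those of the higher members, and the calls did not all last when a library was left out. Rpl34 was called lower without each library in turn, but the 4 lower members became 2 without wild-type replicate 1 (Rpl34 and Rps26), 1 without wild-type replicate 2 (Rpl34) and 2 without TNFR2 KO replicate 2 (Rpl34 and Rpl10a). With near-identical genes added the lower members included Rps26, Rpl36a and Rps2. Rps2, at the entry of the mRNA channel, had measured 1357 and 1403 CPM against 1382 and 1396 CPM from its own counts (log2-fold change 0.01), and came to -0.06 when its copies were added. Of the 48 higher members, 43 were called without each library in turn.

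Both subunits had similar medians. In the large subunit 30 of 46 members were higher and 2 lower, with a median log2-fold change of 0.11, and in the small subunit 18 of 30 were higher and 2 lower, with a median of 0.12. Around the peptide exit tunnel and its rim, 6 of 8 members were higher and 0 lower, with Rpl17 the highest at 0.28. Along the mRNA channel and in the decoding centre, 4 of 7 were higher and 1, Rps26, lower. Of 12 genes mutated in Diamond-Blackfan anaemia, a failure of red cell production, 6 were higher and 2, Rps26 among them, lower, with a median of 0.07. These counts stand beside 24.2% higher and 26.2% lower over all genes tested. Over genes that averaged at least 100 CPM the shares were 47.9% and 22.0%.

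The P stalk recruits the elongation factors to the ribosome. Its protein Rplp0, which anchors the stalk, measured 1734 and 1787 CPM in wild-type and 1858 and 1863 CPM in TNFR2 KO (log2-fold change 0.08, edgeR adjusted p = 0.00810). Rplp1 measured 714 and 752 CPM against 815 and 766 CPM (log2-fold change 0.11, edgeR adjusted p = 0.0158). The genotypes did not overlap in either gene, but the call of Rplp1 was lost without wild-type replicate 1 (log2-fold change 0.079). The levels of Rplp2, the partner of Rplp1 in the stalk, overlapped, at 422 and 445 CPM in wild-type and 450.4 and 437 CPM in TNFR2 KO (log2-fold change 0.03, edgeR adjusted p = 0.384). Rpl12, at the base of the stalk, measured 24.2 and 27.3 CPM against 26.0 and 23.7 CPM (log2-fold change -0.05, edgeR adjusted p = 0.629). With near-identical genes added, among them Gm10275 with the same coding sequence, Rpl12 measured between 610 and 655 CPM and its log2-fold change was 0.07 (edgeR adjusted p = 0.0249).

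Rpl5 and Rpl11 enter the large subunit together with 5S rRNA, and outside the ribosome both can bind Mdm2, the inhibitor of p53. Rpl11 measured 509.6 and 509 CPM in wild-type and 550.5 and 523 CPM in TNFR2 KO (log2-fold change 0.07, edgeR adjusted p = 0.0414), a call that was lost without wild-type replicate 1 or 2 or TNFR2 KO replicate 1 (log2-fold changes 0.083, 0.083 and 0.047). Rpl5 had 17.7 and 16.8 CPM against 18.2 and 17.9 CPM (log2-fold change 0.06, edgeR adjusted p = 0.504), and the counts of its sequence lay almost entirely on Gm15500, whose coding sequence is the same. The symbol Rpl5 held 1.69% of the summed counts, and with its copies it measured 1003 and 994 CPM in wild-type and 1117 and 1072 CPM in TNFR2 KO (log2-fold change 0.13, edgeR adjusted p = 0.000501).

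Rps6, the small subunit protein that S6 kinases phosphorylate downstream of mTORC1, measured 503 and 500.1 CPM in wild-type and 555 and 602 CPM in TNFR2 KO. Both TNFR2 KO libraries lay above both wild-type libraries, at a log2-fold change of 0.21 (standard error 0.0336, edgeR adjusted p = 0.000256). With its copies, chiefly Rps6-ps4, it came to 0.15. Counts of mRNA say nothing of phosphorylation.

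Levels of different members were compared per kilobase of an annotated transcript. By their own counts the 76 members ran from 8.62 to 2119.9 CPM per kilobase, 246-fold apart, with a median of 627 and 59 members within 2-fold of it. The lowest was Rpl5, followed by Rpl12 (20.4), Rps12 (38.1), Rps20 (93.6) and Rpl27a (95.5). Rps12 measured 18.5 and 19.9 CPM in wild-type and 17.9 and 19.0 CPM in TNFR2 KO, and Rpl27a 104 and 104 CPM against 115 and 119 CPM. Rps20, at 334 and 353 CPM against 346 and 354 CPM, has an annotated transcript of 3706 bases, of which 357 are coding. With near-identical genes added the range was 126 (Rps20) to 2119.9 CPM per kilobase, 16.8-fold, and 73 of the 76 members lay within 2-fold of the median of 781. Rpl5, Rpl12 and Rps12 then stood at 512, 511 and 1140 CPM per kilobase. The highest before and after the addition was Rpl41, whose coding sequence of 75 bases is the shortest of all, followed by Rplp1 (1526). Rpl41 measured 857 and 888 CPM against 987 and 974 CPM (log2-fold change 0.17, edgeR adjusted p = 0.000101). Rps2, Rplp0 and Rpl23a, of the exit tunnel, followed at 1387, 1333 and 1315 by their own counts, and Rpl23a measured 711 and 709.9 CPM against 769.9 and 755 CPM. The order of close neighbours depends on the transcript chosen for the length.

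**Figure D5:**
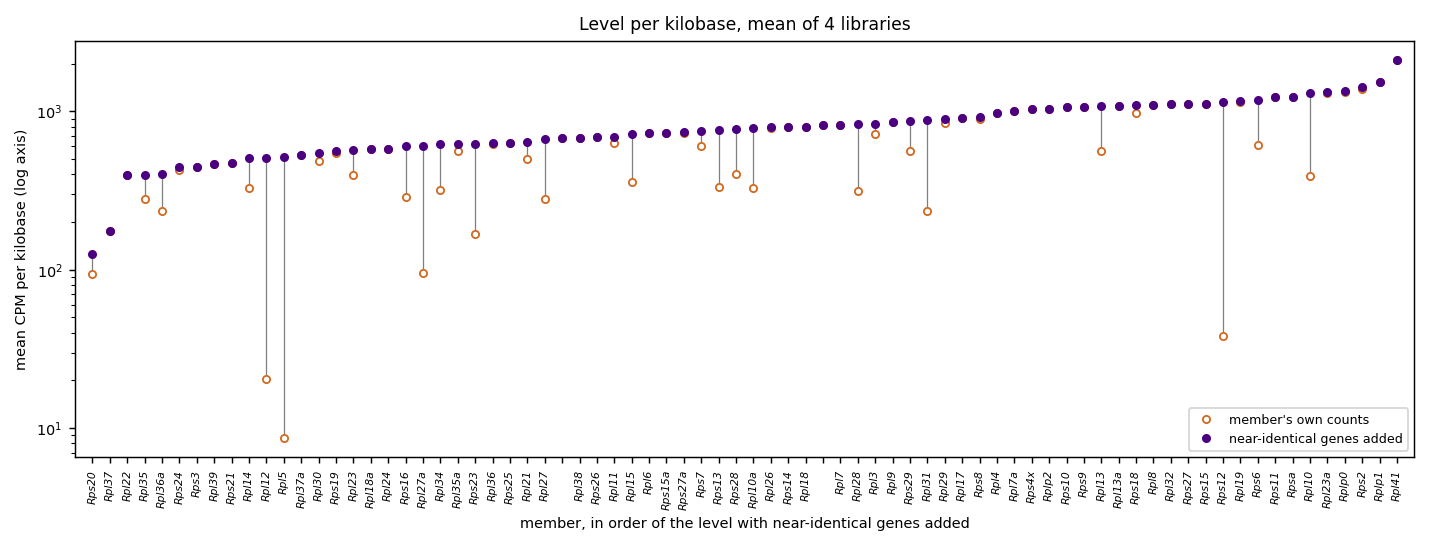
Mean CPM per kilobase over the 4 libraries (vertical log axis) of the 76 members, from the member's own counts (open circles) and with near-identical genes added (filled circles), joined by a grey line and ordered by the latter (horizontal axis, not every member labelled). Rpl5, Rpl12 and Rps12 rise from 8.62, 20.4 and 38.1 to 512, 511 and 1140 CPM per kilobase, and 73 of the 76 filled circles lie within 2-fold of their median.

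Start sites were available for 56 of the 76 members in RefSeq's promoter table (GRCm38.p6), which gives 1 window of 300 bases a gene. A TOP-like run, taken as a C followed by at least 4 of C or T beginning within 5 bases of the annotated start, was present in 27 of the 56 (48.2%) and in 21.2% of the 27025 genes of the table. On the other strand the shares were 14.3% and 24.4%. The letters CCGGAAG, the core bound by ETS factors, stood on either strand of the window in 41.1% of the members and in 9.93% of all genes, and AAGATGGC, the core bound by YY1, in 8.93% and 3.19%. The windows of 40 bases around the annotated start are shown for 3 members with a run, Rpl34 and Rps26 (lower) and Rps18 (higher), and for Rps7 (higher), which had none, all on the minus strand (chr3:130730318-130730357 for Rpl34, chr10:128626487-128626526 for Rps26, chr17:33955646-33955685 for Rps18 and chr12:28635934-28635973 for Rps7). Capitals mark the run from its first matching C within the searched bases, and a match inside a longer run of pyrimidines counted too. In Rpl34 the pyrimidines begin further upstream without a break, so the capitals mark only the end of a longer run. Rplp0 and Rpsa, also higher, had no run either.
Rpl34: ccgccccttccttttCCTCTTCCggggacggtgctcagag
Rps26: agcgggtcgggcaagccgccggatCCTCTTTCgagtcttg
Rps18: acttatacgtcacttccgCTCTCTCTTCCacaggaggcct
Rps7: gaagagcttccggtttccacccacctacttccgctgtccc
Members with and without such a run had similar medians. The median log2-fold change was 0.12 for the 27 with a run, of which 15 were higher and 2 lower, and 0.09 for the 29 without, of which 18 were higher and 1 lower. Beside these counts stand 24.2% higher and 26.2% lower over all genes tested, and 47.9% and 22.0% over genes that averaged at least 100 CPM. A run in these letters is a description, since a start annotated a few bases off moves it out of the window.

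Ribosomal protein genes outside the symbol rule lay in the same range. Fau, whose product yields Rps30, measured 490.5 and 512 CPM in wild-type and 594 and 587 CPM in TNFR2 KO (log2-fold change 0.24, edgeR adjusted p = 1.11e-05). Rack1, a scaffold on the small subunit, measured 1084 and 1096 CPM against 1179 and 1194 CPM (log2-fold change 0.12), and Rps3a1 measured 1004 and 989 CPM against 1068 and 1052 CPM (log2-fold change 0.09), and edgeR's test called both higher. Among 7 paralogs that passed the filter, 1 was called, while 24.2% of all genes tested were higher and 26.2% lower. This was Rpl36al, close to Rpl36a, which was higher at 158 and 159.7 CPM against 178 and 169.7 CPM (log2-fold change 0.13, edgeR adjusted p = 0.00426). Rpl22l1 measured 85.6 and 82.2 CPM against 93.4 and 85.9 CPM, Rpl7l1 81.0 and 78.2 CPM against 76.7 and 79.5 CPM, and Rps27l, a p53 target, 54.7 and 54.8 CPM against 54.0 and 55.2 CPM. Rps4l stayed between 7.19 and 8.30 CPM, and Rpl39l and Rps27rt were under 2 CPM in every library.

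Other mRNAs with a TOP motif were called in shares near those of abundant genes. Of 21 tested genes for elongation factors, initiation factor subunits and related proteins, edgeR's test called 11 higher and 4 lower, beside 47.9% and 22.0% of the genes that averaged at least 100 CPM, with a median log2-fold change of 0.10. Eef1a1, the factor that brings aminoacyl-tRNAs to the ribosome and the most abundant of the list, measured 7932 and 7807 CPM against 8937 and 8935 CPM (log2-fold change 0.18, adjusted p = 1.11e-06 in the same test). Tpt1 measured 1527 and 1514 CPM against 1872 and 1883 CPM (log2-fold change 0.30, adjusted p = 7.39e-08 in the same test). The genotypes did not overlap in either gene.

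Genes that act on the ribosomal protein mRNAs or make the other parts of the ribosome were called in both directions. Of 19 regulators around mTORC1 and the TOP motif, 4 were higher and 6 lower in edgeR's test. Over all genes tested the shares were 24.2% and 26.2%. Larp1, which binds the TOP motif, was lower, at 374 and 377 CPM against 288 and 294 CPM (log2-fold change -0.37, edgeR adjusted p = 1.25e-07). Pdcd4, an inhibitor of translation initiation, was higher, at 80.8 and 78.6 CPM against 132 and 130.2 CPM (log2-fold change 0.72, edgeR adjusted p = 3.70e-09). Of 13 genes of RNA polymerase I and its factors 4 were higher and 1 lower, beside the same shares of all genes. The lower one was Polr1a, the catalytic subunit, at 51.3 and 50.05 CPM against 39.1 and 40.1 CPM, and Ubtf, which opens the rRNA genes, was higher at 193.9 and 193.7 CPM against 215 and 212 CPM.

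Of 15 chaperones and assembly factors of ribosomal proteins, 7 were lower and 1 was higher in edgeR's test, beside 26.2% and 24.2% of all genes tested, with a median log2-fold change of -0.18. Heatr3, which carries Rpl5 into the nucleus, measured 31.5 and 34.7 CPM in wild-type and 23.6 and 23.1 CPM in TNFR2 KO (log2-fold change -0.50, edgeR adjusted p = 2.78e-05), and Ltv1, of the small subunit, 31.4 and 33.1 CPM against 27.0 and 25.9 CPM (log2-fold change -0.28). The higher one was Aamp, at 88.3 and 95.9 CPM against 102 and 105 CPM.

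In the checkpoint by which free ribosomal proteins act on p53, 2 of 8 genes were higher and 4 lower in edgeR's test. The shares over all genes tested were 24.2% and 26.2%. Cdkn1a, a p53 target that halts the cell cycle, measured 60.6 and 63.0 CPM against 35.8 and 35.9 CPM (log2-fold change -0.79, edgeR adjusted p = 2.86e-08), and Nop53, a nucleolar assembly factor, 212 and 226 CPM against 289.7 and 280.1 CPM (log2-fold change 0.38, edgeR adjusted p = 1.33e-06). Npm1, the abundant nucleolar chaperone, fell from 509 and 490.5 CPM to 434 and 432 CPM.

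The mitochondrial ribosomal proteins, whose genes make the separate ribosomes of the mitochondria, were called about as often in either direction. Of 78 tested genes 12 were higher and 13 lower, beside 24.2% and 26.2% of all genes tested, with a median log2-fold change of -0.02. Of the 76 cytosolic members 48 were higher and 4 lower, with a median of 0.11, and the difference between both groups was not tested. The groups differ in abundance too. Of the cytosolic members 73 averaged at least 100 CPM, while the most abundant mitochondrial ribosomal protein gene averaged 79.0 CPM. Their summed level was 2400 and 2427 CPM in wild-type and 2439 and 2419 CPM in TNFR2 KO, while that of the cytosolic members was 37650 and 38417 CPM against 42084 and 41521 CPM. Mrpl9 was higher at 52.9 and 52.4 CPM against 64.9 and 66.3 CPM, Mrps2 was lower at 27.5 and 29.8 CPM against 21.1 and 20.1 CPM, and Mrpl18, the most abundant, measured 76.2 and 78.9 CPM against 79.8 and 81.2 CPM.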

How the data were processed

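The authors trimmed the poly-A selected, stranded, paired-end reads of the 4 libraries (Trimmomatic 1.4), assigned them to mm10 transcripts (kallisto 0.46.1), summed them per gene symbol and deposited these unscaled expected counts (estimated counts). Which transcript annotation they used was not given in the sources used here. A row without a gene name held 0.0559% to 0.0728% of the counts and was left out.

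Expected counts were rounded to whole numbers, filtered with filterByExpr, scaled with TMM and fitted by genotype alone. The test was edgeR's quasi-likelihood test (edgeR 4.0.16, R 4.3.3), with p-values adjusted over 13822 genes after Benjamini and Hochberg. Calls took an adjusted p under 0.05 and, for both thresholds, an absolute log2-fold change over 1. CPM were computed from TMM-scaled counts, and a positive log2-fold change means a higher level in TNFR2 KO. Totals of 32713256 to 39543650 counts per library make counting error small for the members, and larger for the paralogs under 10 CPM. The p-values measure the spread between duplicate libraries (biological coefficient of variation 3.33%). If both numbers came from the same hosts, that spread holds no difference between mice.

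The description that the labels give for each library states that wild-type and TNFR2 KO libraries of the same number came from the same pooled spleens, so the numbers pair the samples. Same-numbered libraries deviated from the means of their groups with a correlation of 0.0575 over all genes and 0.158 over the members.

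Members and lists were chosen with earlier results of these data known. Genes named with values are Tnfrsf1b, up to 5 higher and up to 5 lower members of smallest adjusted p, the 5 with the largest change, the 5 highest and 5 lowest per kilobase, the P stalk, 5S and Rps6 members, genes outside the symbol rule, paralogs past the filter, and 2 genes with the smallest adjusted p and the most abundant gene of the other lists. Klra8, Ncr1, Rps2's later call, the near-identical genes, Rpl10a, Rpl13a, Rpl17, Rps24, Rps27 and Rpsa were named after their values were seen. Some genes that the rule takes are not reported here.

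Positions, lengths (APPRIS principal transcript with the longest coding part) and near-identical genes come from GENCODE release M21 on GRCm38, which matched all 76 members and stands in for the authors' annotation. Near-identical genes have at least 50% of their 31-base stretches in the member. Alternatives were scaling on 43 NK lineage genes, by library size alone, by upper quartile, with DESeq2's size factors or with TMM computed without the members; DESeq2 1.42.0 as the test; no filter, or at least 10 CPM on average; the replicate block; each library left out, 317 named pseudogenes added, a minimum of 1000 summed counts and, chosen after seeing the data, near-identical genes added. Tested on simulated counts for this comparison, with 200 of 13599 genes changed, edgeR recovered 100 of 100 genes changed 2-fold and 80 of 100 changed 1.3-fold, with 15 false calls. Plots used matplotlib 3.10.9.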

Additional observations from a re-analysis of the deposited data

How the results depend on the processing

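Under DESeq2's size factors, upper-quartile scaling, TMM without the members, DESeq2, no filter and a minimum of 1000 summed counts, the counts of members called in each direction stayed within 1.5 times of 48 higher and 4 lower, and the median stayed between 0.11 and 0.12. Library size alone gave 31 higher members and a median log2-fold change of 0.052, and a mean of at least 10 CPM a median of 0.077. Scaling on NK lineage genes gave 0 higher and 76 lower members and a median of -0.58, while the median of all genes was -0.69. With named pseudogenes or near-identical genes added, 0 members were lower past both thresholds, and the difference in the share of counts was 0.159 and 0.143 percentage points in place of 0.209. When each library was dropped in turn, 1 to 4 members were lower, 44 to 55 were higher, the median lay between 0.11 and 0.13 and the difference in share between 0.170 and 0.248 percentage points. A group of 1 library is then assumed to vary like the other group. With the replicate number as a block, which the shared pools pair, 49 members were higher and 4 lower, the median was 0.11, and none of the 47 named genes changed its call. In every alternative except NK lineage scaling, 30 of the 48 higher members were called higher and 0 of the 4 lower ones lower. Rpl34 turned to 0.11 with named pseudogenes and to 0.11 with near-identical genes added.

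Of the 47 genes named with values, 25 kept direction and side of the threshold throughout, with changes under NK lineage scaling taken relative to the shift of -0.69 in the median of all genes. The genes that changed sign, other than Rpl34, were not called in edgeR's main test. Rps2 turned to -0.052 with library size alone, -0.027 at 10 CPM, -0.061 with named pseudogenes and -0.063 with near-identical genes. Rps20 turned to -0.034, -0.0089 and, with near-identical genes, -0.0059, and Rplp2 to -0.027 and -0.0025 (library size alone, 10 CPM). Rpl12 and Rps12 turned to 0.072 and 0.0010 with near-identical genes. Library size alone gave -0.028 for Rpl39l and -0.0077 for Mrpl18. Rps27l turned to 0.0046 with upper-quartile scaling and 0.0012 without a filter. With a library left out, the log2-fold changes ranged from -0.0067 to 0.042 for Rps2, -0.0054 to 0.078 for Rps20, -0.12 to 0.049 for Rpl12, -0.10 to 0.0045 for Rps12, -0.048 to 0.0077 for Rpl7l1, -0.31 to 0.50 for Rpl39l, -0.015 to 0.023 for Rps27l and -8.01 to 5.997 for Rps27rt, which is at 0 in 2 libraries. Library size alone ended the calls of Rplp0, Rplp1, Rpl11, Rpl23a, Rps3a1, Rpl36al and Aamp. The cause was not tested. Depth limits none of the members, but Rpl39l, Rps27rt and Rps4l rest on few counts. Reads from stretches that a member and its copy share cannot be told apart at any depth.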
